A study of Caenorhabditis elegans with 2 samples.

Results

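Described here is the binding of SMA-9 at 7 genes of cdc-48 and endoplasmic reticulum (ER)-associated degradation, among 19973 protein-coding genes on the nuclear chromosomes of Caenorhabditis elegans. The genes are cdc-48.1, cdc-48.2, ufd-1, npl-4.1, npl-4.2, sel-1 and sel-11. They were chosen by name with earlier results of the same peak lists in view, selected on the summits and signals of the IDR, pooled and replicate lists explained below, so these values are a description and none was put to a test. A gene was given every peak with its summit, the position of highest signal, inside the gene or no more than 3000 bp from either end.

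SMA-9, the worm's Schnurri protein, is a DNA-binding factor with zinc fingers that works with the BMP-like DBL-1 pathway in body size control and mesoderm patterning. The data are chromatin immunoprecipitation followed by sequencing (ChIP-seq) from 1 group of 2 biological replicates, with no mutant or treatment to set them against. Each replicate was made from whole L2 hermaphrodites of strain LW1254, collected 22 hours after the L1 starvation that synchronized them. All of these animals carried unc-119(ed4) and the integrated array jjIs1254, which holds a fusion of sma-9C2 to gfp together with a rescuing unc-119(+) copy, and chromatin was sheared by sonication. The labels do not say where the array sits, how its level compares with that of the native gene or which cells express it, and a whole-larva sample does not show in which cells a site was bound. They name the tag as eGFP in one field and as GFP-FLAG at the C terminus in another, and they do not state whether the replicates came from separate cultures. They describe the pull-down as made with an antibody against GFP, while the antibody field names sma-9, so whether native SMA-9 could also be pulled down is not settled by them.

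CDC-48, called p97 or VCP in mammals, is an AAA ATPase that uses ATP to pull ubiquitylated proteins out of membranes and complexes. Its cofactors UFD-1 and NPL-4 form a heterodimer that recognises the ubiquitin chains. In ER-associated degradation, misfolded proteins are ubiquitylated at the ER membrane by the ligase SEL-11 (Hrd1 in yeast) with its partner SEL-1 (Hrd3 in yeast), and CDC-48 then extracts them for the proteasome. In C. elegans, CDC-48 is encoded by the paired genes cdc-48.1 and cdc-48.2, and NPL-4 by npl-4.1 and npl-4.2.

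Of the 7 genes, 3 had at least 1 peak in the list made with the irreproducible discovery rate (IDR). That rate measures how alike peaks rank in the replicates. The list holds the first 7065 calls by signal of the pooled list, which came from both replicates. A single peak was thus on it by its pooled signal, and 6727 of the peaks had a call in both replicates at the summit. The 3 genes were cdc-48.1 with 4 peaks, and sel-1 and sel-11 with 1 each. Only the cdc-48.1 peaks included one within 1000 bp of the gene's own 5′ end, and that peak was among the strongest in the genome, at rank 10 of 7065. No peak on the list lay at cdc-48.2, ufd-1, npl-4.1 or npl-4.2.

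The DNA under these summits is shown so that the letters can be read beside the signals. Each line is the summit with 50 bases on either side, from the WBcel235 (ce11) RefSeq assembly, written 5′ to 3′ on the coding strand of the gene. Capitals mark matches, on either strand, to the motifs listed after the sequences. The first 3 lines are the strongest IDR peak of each gene that had one. The other 2 were chosen after their values were seen: a second cdc-48.1 peak past the end of the gene, and the strongest cdc-48.2 call, which is not on the IDR list. They lie at chrII:10563519-10563619 (minus strand), chrV:11764480-11764580 (plus), chrV:12565045-12565145 (plus), chrII:10558467-10558567 (minus) and chrII:8137637-8137737 (plus).
cdc-48.1 promoter peak: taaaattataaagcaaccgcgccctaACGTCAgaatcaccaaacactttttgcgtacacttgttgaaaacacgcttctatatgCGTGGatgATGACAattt
sel-11 upstream peak: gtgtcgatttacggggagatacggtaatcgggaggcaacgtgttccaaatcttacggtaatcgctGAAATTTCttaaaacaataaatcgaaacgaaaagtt
sel-1 downstream peak: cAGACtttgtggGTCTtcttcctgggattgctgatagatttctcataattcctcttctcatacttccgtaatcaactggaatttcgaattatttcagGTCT
cdc-48.1 downstream peak: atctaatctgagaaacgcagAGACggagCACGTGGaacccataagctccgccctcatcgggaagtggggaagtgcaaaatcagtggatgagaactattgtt
cdc-48.2 upstream call: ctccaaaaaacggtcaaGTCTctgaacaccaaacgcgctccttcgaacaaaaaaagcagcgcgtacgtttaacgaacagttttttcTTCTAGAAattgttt

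Letters were searched on both strands for 11 motifs. GTCT is the Smad box and GTCTAGAC its palindrome. CACGTG is the E-box, and TGACGT is the core that CREB and ATF proteins bind. CCACG is part of the ER stress response element of mammals. TGTCAT resembles the sites of SKN-1 and related leucine zipper proteins. GATAA is the core for GATA factors and GTAAACA the core for forkhead factors. GAANNTTC and TTCNNGAA are inverted repeats of the heat shock element unit, and CTGCGTCT was searched as letters only. Some overlap one another: GTCTAGAC contains GTCT, and a CCACG match can share bases with CACGTG. The cdc-48.1 promoter window held TGACGT together with 1 match each to CCACG and to the letters TGTCAT, all of them as the reverse complement on the coding strand. Among all 7065 IDR windows of the same length, 7.74% held TGACGT, 14.5% held CCACG and 6.96% held TGTCAT. The window held no GTCT, which 59.4% of all windows did. The second cdc-48.1 window held CACGTG, found in 7.36% of windows, with a CCACG match overlapping it, and a GTCT. The sel-1 window held GTCT in 3 places, the sel-11 window held GAANNTTC, found in 3.14% of windows, and the cdc-48.2 window held GTCT and TTCNNGAA, the last found in 3.11% of windows. None of the 5 printed windows held GTCTAGAC, which 0.113% of all windows did, or GATAA, which 33.0% did. Nor did any hold the forkhead core, found in 2.32% of all windows, or CTGCGTCT, found in 7.94%. These are matches of letters and do not show that a factor binds them.

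The peak at the cdc-48.1 promoter had the highest signal of any at the 7 genes. The gene (WBGene00007352) lies on the minus strand of chromosome II at 10560036 to 10563407, and the peak spans 10563467 to 10563675, outside any annotated gene. Its summit, at 10563569, was 162 bp upstream of the 5′ end of cdc-48.1. Its IDR signal was 1630.01, and only 5 protein-coding genes in the genome, cdc-48.1 included, had an IDR summit of at least that signal within 1000 bp of a 5′ end. The signal is the authors' own value per peak, and factors between different peaks are taken within a list only. Signals of the same peak in the replicates are set side by side, though whether their scales are alike is not known. It was 14.9 times the median of the IDR list, which was 109.

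Both replicates called this peak among their strongest. Replicate 1 gave it a signal of 966 and rank 5 of 30000 calls, and replicate 2 a signal of 677 and rank 18. Of the calls ahead of it in replicate 2, some lay on the mitochondrial chromosome, and counted over the nuclear chromosomes alone its rank was 11. The ratio of the signals, replicate 1 over replicate 2, was 1.43, against a median of 1.24 and quartiles of 0.956 and 1.5996 over the 6727 IDR peaks called in both replicates.

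The other 3 IDR peaks of cdc-48.1 lay beyond its 3′ end. Their summits were 994, 1519 and 2632 bp past the gene, with signals of 169, 143 and 186 and ranks of 1870, 2404 and 1629. The strongest of these was weaker than the promoter peak by a factor of 8.75. They stand in the 4991 bp between cdc-48.1 and mnk-1, which codes for a kinase of the MNK family and runs in the same direction. The nearest protein-coding 5′ end to all 3 was that of mnk-1, 3998, 3473 and 2360 bp away, so these peaks are upstream of mnk-1 as well as downstream of cdc-48.1. With the window widened to 5000 bp, 2 further IDR summits appeared in the same stretch, with signals of 102 and 95.2, at 1765 and 864 bp upstream of mnk-1.

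The replicates covered these downstream peaks less exactly. For the summit at 1519 bp past the gene, replicate 1 gave a signal of 74.8 and replicate 2 one of 74.2. For that at 994 bp, the replicate 2 call of 94.4 covered the summit, and the replicate 1 call of 123 ended 1 bp short of it. For that at 2632 bp, the replicate 1 call of 87.9 covered the summit, and the replicate 2 call of 90.4 started 22 bp from it. The base composition of the 4 cdc-48.1 windows was spread widely, at 38.6% G and C at the promoter and 49.5%, 57.4% and 35.6% for the summits at 1519, 994 and 2632 bp past the gene, beside a median of 43.6% over all IDR windows. The window at 994 bp held none of the 11 motifs. The other 6 pooled calls of cdc-48.1, from within the gene to just past its 3′ end, were not on the IDR list and had signals from 19.4 to 49.8.

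**Figure D1:**
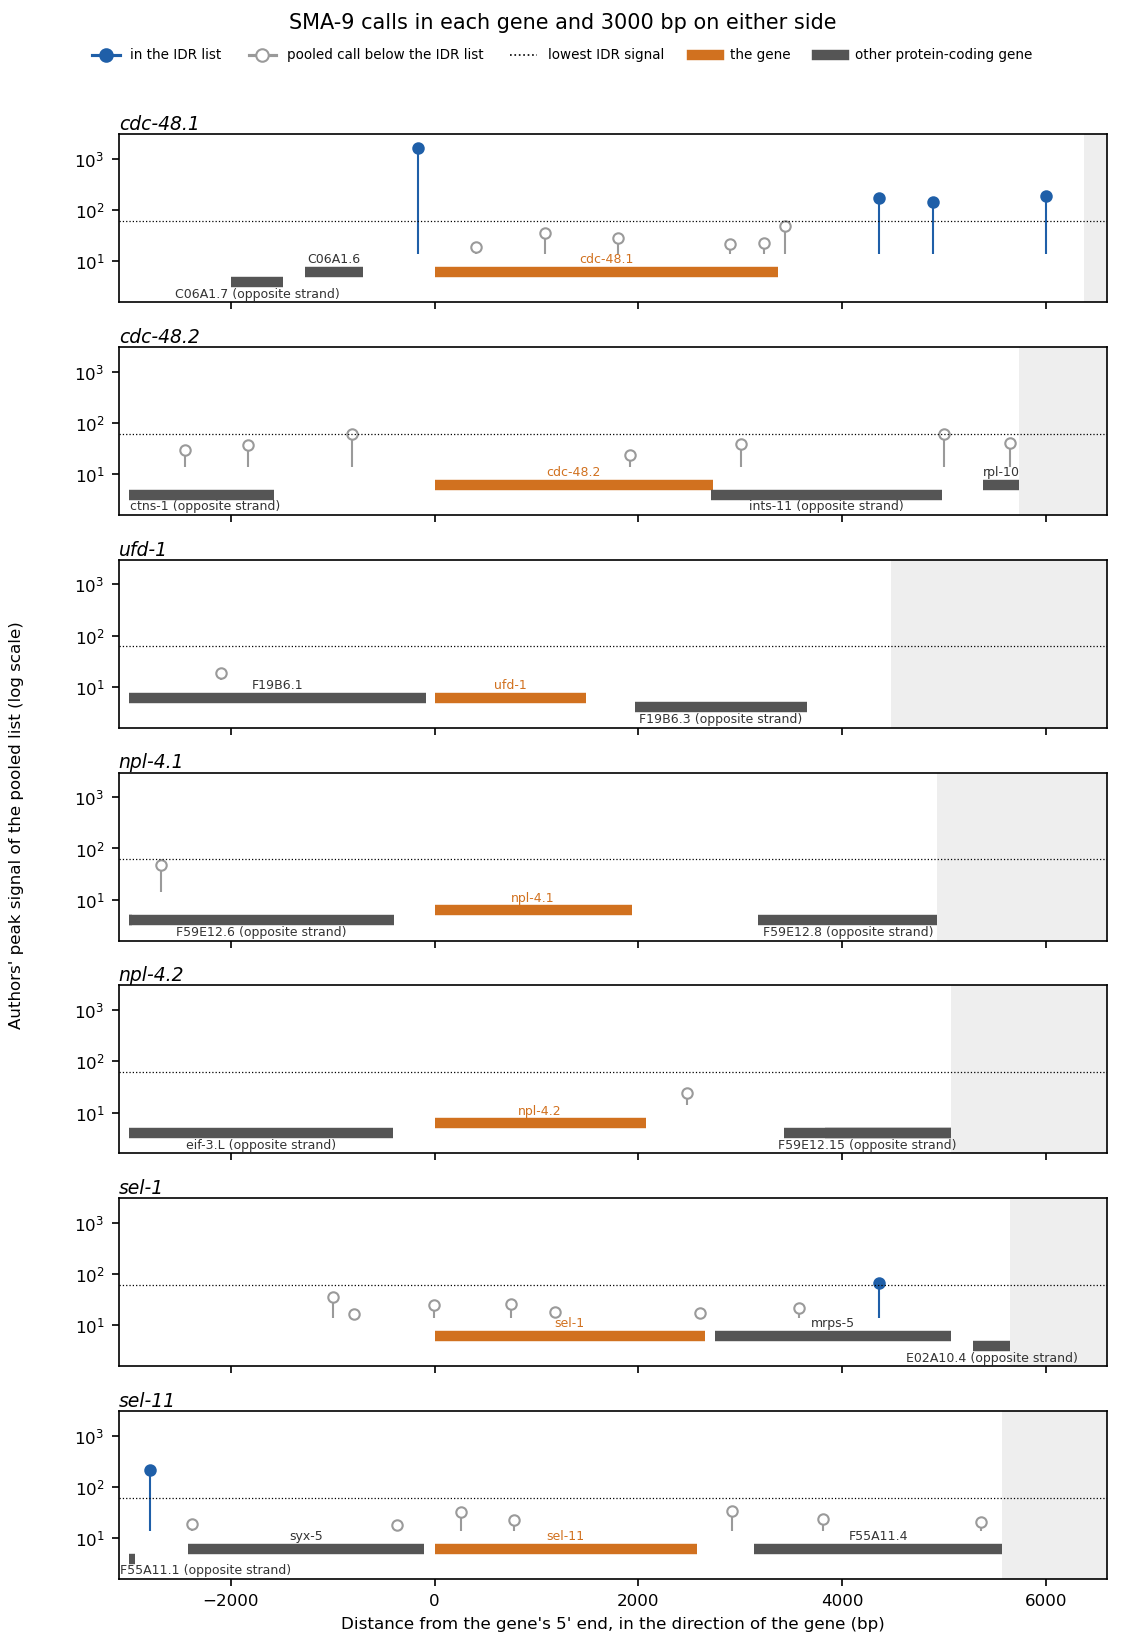
Pooled SMA-9 calls in and around each of the 7 genes, by distance from the gene's 5′ end in bp, with the signal on a log axis. Filled points are calls that are also on the IDR list. The cdc-48.1 promoter peak, at 1630.01, stands above every other call at these genes, and the next is the sel-11 peak at 211.

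The second gene for the same ATPase, cdc-48.2, had no IDR peak. It (WBGene00008053) lies on the plus strand of chromosome II at 8138496 to 8141230. The 2 proteins, of 809 and 810 residues, are identical at 88.1% of aligned positions when the annotated coding sequences are translated. In the pooled list, which ranks 30000 regions including weak background ones, cdc-48.2 had 7 calls. The strongest, with its summit at 8137687 and 809 bp upstream of the gene, had a signal of 61.6 and rank 7118. It fell 53 ranks after the last IDR peak, which had a signal of 62.0. Replicate 1 gave it a signal of 28.2 at rank 9329 and replicate 2 one of 27.5 at rank 7727. It lies between cdc-48.2 and the divergent gene ctns-1, the gene for the lysosomal cystine transporter cystinosin, whose 5′ end was slightly nearer at 769 bp.

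The signal of the strongest call at cdc-48.1 was 26.5 times that at cdc-48.2 in the pooled list. Between the replicate calls at these same summits, the factor was 34.3 within replicate 1 and 24.7 within replicate 2, so cdc-48.1 was the higher in both. The next cdc-48.2 call had a signal of 59.8 and lay 2266 bp past its 3′ end, 18 bp upstream of the 5′ end of ints-11, which codes for the nuclease subunit of the Integrator complex. Replicate 1 gave it a signal of 33.6 at rank 7619 and replicate 2 one of 33.9 at rank 6083, so each replicate placed it above the call that was the stronger in the pooled list. The other 5 calls had signals from 23.5 to 40.6. The lowest of these was in a coding exon of cdc-48.2 itself and had no call at its summit in either replicate.

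The ligase gene sel-11 and the gene of its partner, sel-1, each had a single IDR peak, and neither peak lay at the gene's own 5′ end. The sel-11 gene (WBGene00004768) runs on the plus strand of chromosome V at 11767328 to 11769899. Its peak, at 11764455 to 11764582, had its summit 2798 bp upstream with a signal of 211 and rank 1330. Replicate 1 gave it a signal of 111 at rank 1472 and replicate 2 one of 100.3 at rank 1263. The summit lies between the 5′ ends of F55A11.1 and syx-5, at 145 bp from the first and 374 bp from the second. The gene syx-5, which codes for a syntaxin of ER to Golgi transport, is on the same strand as sel-11 and ends 105 bp before it. In C. elegans, genes so close in tandem can be transcribed together from the promoter of the first. The annotation used does not list such operons, and whether the peak serves sel-11 was not tested.

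Only weak pooled calls lay within 1000 bp of the 5′ end of sel-11. One was in an intron, 261 bp downstream of the 5′ end, with a signal of 33.1 and a replicate 1 call of 23.3. A weaker intronic call was 777 bp from the 5′ end, with a signal of 22.6 and a replicate 2 call of 16.1. The weakest was 370 bp upstream, in a coding exon of syx-5, with a signal of 18.4 and a replicate 1 call of 13.7. None reached the IDR list, and neither did a call of 34.2 that lay 345 bp past the 3′ end.

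The sel-1 gene (WBGene00004759) lies on the plus strand of chromosome V at 12560732 to 12563383. Its IDR peak, at 12564960 to 12565229, was 1712 bp past the 3′ end, in an intron of mrps-5, a gene for a protein of the mitochondrial ribosome that follows sel-1 on the same strand after 103 bp. The signal was 67.1, at rank 6449 of 7065 and so near the foot of the IDR list. Replicate 1 gave a signal of 29.2 at rank 8917 and replicate 2 one of 33.0 at rank 6269. Within 1000 bp of the 5′ end of sel-1 there were 4 weak pooled calls, each with a call at its summit in 1 replicate only. Those 3 and 997 bp upstream had pooled signals of 24.9 and 35.3 and replicate 2 calls of 10.8 and 17.1. Those 753 bp downstream and 794 bp upstream had pooled signals of 25.6 and 16.7 and replicate 1 calls of 13.9 and 19.6.

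**Figure D2:**
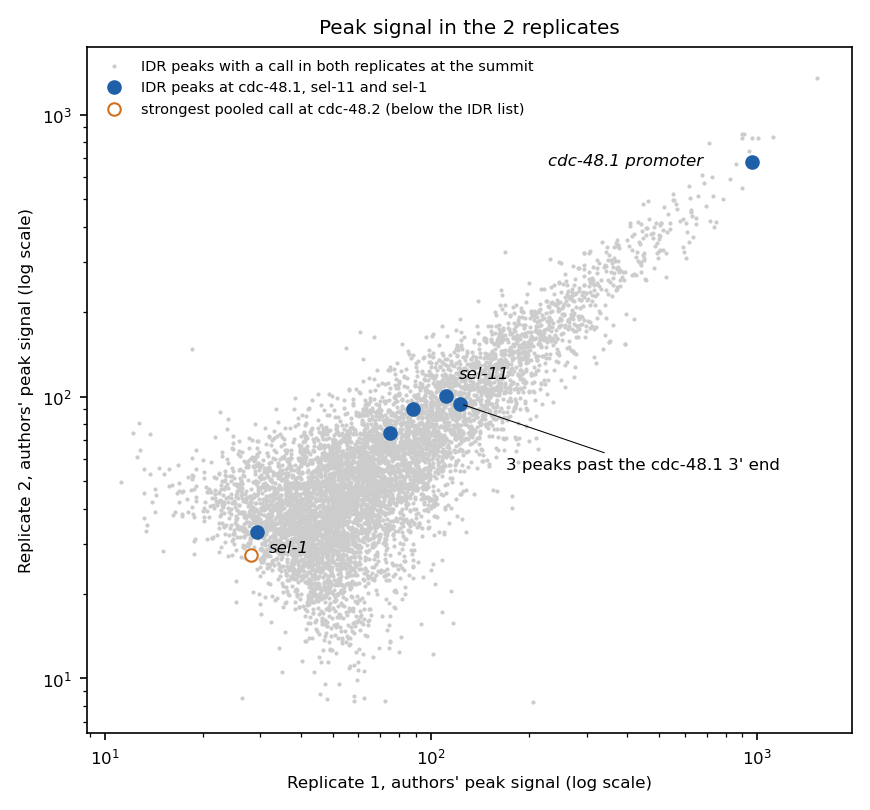
The authors' signal of replicate 1 (horizontal log axis) and replicate 2 (vertical log axis), with the 6727 IDR peaks called in both replicates in grey, the 6 IDR peaks of cdc-48.1, sel-11 and sel-1 in blue and the strongest cdc-48.2 call as an open point. For the cdc-48.1 peaks at 994 and 2632 bp past the gene, the replicate call that misses the summit but overlaps the peak was used. The cdc-48.1 promoter peak lies at 966 and 677, near the top of the cloud, while the sel-1 peak at 29.2 and 33.0 is close to the cdc-48.2 call at 28.2 and 27.5.

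The cofactor genes ufd-1, npl-4.1 and npl-4.2 each had 1 pooled call and no IDR peak. The ufd-1 gene (WBGene00006733) is on chromosome IV at 12329408 to 12330890, minus strand. Its call had a signal of 18.9 at rank 26094 of 30000, with a replicate 1 call of 13.9 and none in replicate 2, and it lay in a coding exon of F19B6.1. That gene is on the same strand and stands 85 bp upstream of ufd-1. The nearest IDR peak was outside the window, 4741 bp from ufd-1, with a signal of 98.6 and its summit 410 bp downstream of an F19B6.1 5′ end. As with syx-5 and sel-11, genes so close in tandem can be transcribed together, and whether that peak serves ufd-1 was not tested.

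The paired npl-4 genes lie close together on the plus strand of chromosome II, npl-4.2 (WBGene00019121) at 5622889 to 5624959 and npl-4.1 (WBGene00019120) at 5631351 to 5633284. The npl-4.1 call had a signal of 48.28 at rank 9175 and lay 2690 bp upstream, over F59E12.6. Replicate 1 gave it 26.8 and replicate 2 gave it 14.9. The npl-4.2 call had a signal of 24.2 at rank 19639 and lay 406 bp past the 3′ end, with a replicate 2 call of 18.5 and none in replicate 1.

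The sequence of these 2 genes and of the 1000 bp upstream is largely repeated, and an empty promoter was not read here as an unbound one. The proteins, of 529 residues each, are identical at 99.1% of aligned positions. Of the 970 stretches of 31 bp in the 1000 bp upstream of each gene, 0 occurred only once in the genome, and within the genes 13.3% did for npl-4.1 and 15.3% for npl-4.2. The length of 31 bp was chosen here, after the peak values had been seen; the sources used here give neither the read length nor the rule for reads that map to several places. Of the 3068 such repeated 31 bp stretches in the npl-4.1 window, 99.8% were also in the npl-4.2 window. How far this set the signal at the pair was not tested.

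At the other genes, more of the sequence was unique at 31 bp. Of the 31 bp stretches in the gene and 3000 bp on each side, 99.9% were unique for cdc-48.2, 97.1% for ufd-1, 92.7% for cdc-48.1 and 100% for sel-1 and sel-11, beside 91.3% for the whole genome. In the 1000 bp upstream, the share was 87.5% for cdc-48.1 and 100% for cdc-48.2, ufd-1, sel-1 and sel-11. All 6 IDR peaks at the 7 genes consisted of unique stretches alone. Nearly all of the sequence at cdc-48.2 and ufd-1 was thus unique at this length, and why these genes had no IDR peak was not tested.

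**Figure D3:**
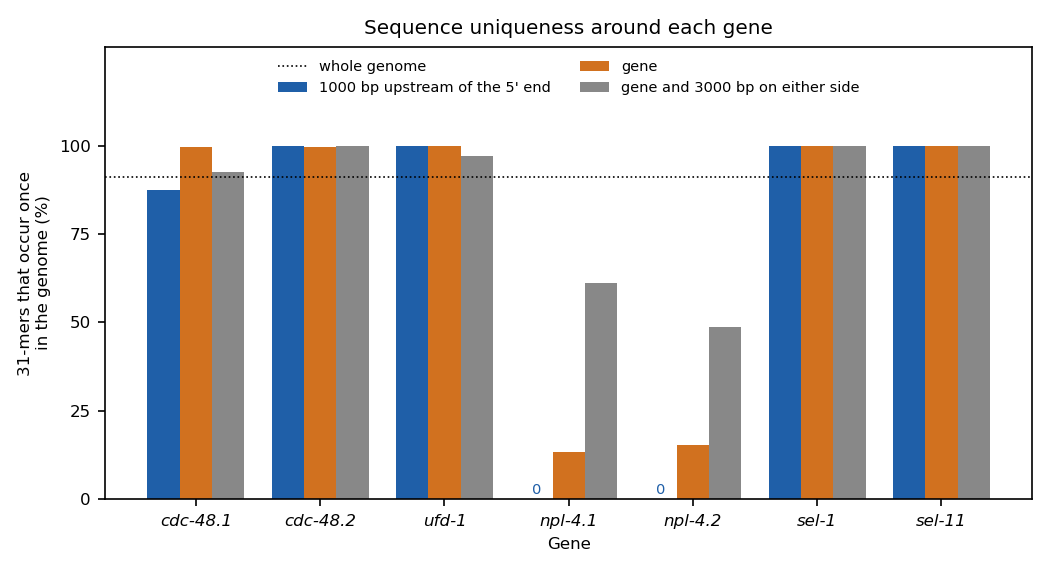
Share of 31 bp stretches that occur only once in the genome, in percent, for the 1000 bp upstream of each gene, for the gene and for the gene with 3000 bp on each side. The values upstream of npl-4.1 and npl-4.2 are 0, while those of the other genes are at or above 87.5%.

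Counted over the 7 genes, 3 of 7, or 42.9%, had an IDR summit in the gene or within 3000 bp, and 39.8% of all 19973 protein-coding genes did. Among the 7616 genes within the length range of the 7, the share was 39.3%. Within 1000 bp of a 5′ end, 1 of 7, or 14.3%, had an IDR summit, beside 20.2% of all genes. All 7 had at least 1 call in the pooled list within 3000 bp, as 69.2% of all genes did. The share of the 7 with an IDR peak was thus near that of genes at large. The mean number of IDR summits was 0.857 per gene among the 7 and 0.660 among the other genes, with a median of 0 in both. At 4 summits, cdc-48.1 was beside 477 other genes, or 2.39%, with at least as many.

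Of 36 pooled calls, 30 were not on the IDR list, with signals from 16.7 to 61.6 and a median of 24.6. Of the 30, 9 had a call at their summit in both replicates. Pooled calls within 1000 bp of the gene's own 5′ end existed at cdc-48.1, cdc-48.2, sel-1 and sel-11. The matching shares over all calls off the IDR list and over all genes are not given here, so these counts were not compared. The values nearest the limits of the rule were those of sel-1 and cdc-48.2, at 67.1 on the IDR list and 61.6 off it, and, for distance, the sel-11 peak at 2798 bp inside the window and a cdc-48.1 peak at 3227 bp outside it.

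Other genes of the pathway were taken from a list of 39 named from textbook roles, of which 36 were found in the annotation by symbol. The list was made with earlier results of these data known, so its shares are a description and were not tested. It includes 8 genes of stress responses, which are counted apart below. The 3 not found, edem-1, edem-2 and edem-3, belong to the glycan group and have no value. IDR summits within 3000 bp were present at 20 of the 36, or 55.6%, beside 39.8% of all genes, and within 1000 bp of a 5′ end at 15, or 41.7%, beside 20.2%. The strongest signal per gene ran from 68.6 to 489 with a median of 185, so that the cdc-48.1 promoter peak was above all of them. For 10 of the 20 genes the 5′ end nearest to the strongest peak was the gene's own, and for the other 10 it was that of a neighbour. The counts by group below stand beside the same shares of all genes, 39.8% and 20.2%. No share matched to the lengths of the list genes is given here.

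Among the ligases, their E2 partners and channel proteins, 4 of 10 had an IDR peak. The E2 genes ubc-7 and ubc-6, whose products carry the ubiquitin that the ligases help pass to a substrate, had signals of 209 at 302 bp and 129 at 284 bp upstream. The derlin gene cup-2, for a protein of the ER membrane channel, had a peak of 123 that was nearer to its neighbour tag-353. The ligase gene marc-6 had one of 93.1 past its 3′ end, nearer to C35E7.9. There was none at der-2, hrdl-1, rnf-5, rnf-121, ubc-14 or ubc-26. Of these 10 genes, 3 had an IDR summit within 1000 bp of a 5′ end.

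Of the genes for glycan handling and ER lectins that were found, 3 of 4 had a peak: uggt-1, the glucosyltransferase that tags unfolded glycoproteins, at 342 and 196 bp upstream; crt-1, the gene of calreticulin, at 185 and 280 bp upstream; and cnx-1, the gene of calnexin, at 98.4 but nearer to panl-3. The N-glycanase gene png-1 had none.

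Of the genes for further CDC-48 cofactors and ubiquitin shuttles, 7 of 14 had a peak. The gene ufd-3, whose yeast relative binds Cdc48 and ubiquitin, had IDR peaks of 310.4 at 2915 bp and 309 at 124 bp upstream, the first of them nearer to C05C10.3. The ubiquilin gene ubql-1 had 189 at 514 bp upstream, and ufd-2, for the enzyme that lengthens ubiquitin chains, had 113 at 291 bp. The shuttle gene rad-23 had 102 at 239 bp upstream, in a region also 156 bp from the 5′ end of rpn-12, a proteasome subunit gene. The peaks of ubxn-3 at 331, atx-3 at 94.1 and ubxn-6 at 68.6 lay nearer to F48A11.4, F28F8.9 and eif-1.A. There was none at cdc-48.3, chn-1, ubxn-1, ubxn-2, ubxn-4, ubxn-5 or vms-1.

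Of the genes of the unfolded protein response and of the response to proteasome loss, 6 of 8 had a peak, all with an IDR summit within 1000 bp of a 5′ end. Among all genes the shares were 39.8% and 20.2%, without matching for gene length. The strongest signals were 489 at hsp-3, which codes for a BiP chaperone of the ER, 326 at skn-1, 316 at xbp-1, 239 at atf-6, 186 at ire-1 and 130.3 at pek-1. The last 4 are the sensors of ER stress and the transcription factor XBP-1, whose mRNA IRE-1 splices. At ire-1 the strongest of 6 IDR summits was 2531 bp from the 5′ end and nearer to ulp-4, and at pek-1 the strongest of 4 was nearer to F08B12.4. The other BiP gene, hsp-4, had no IDR peak, and neither did ddi-1, whose product is the protease that activates SKN-1A.

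**Figure D4:**
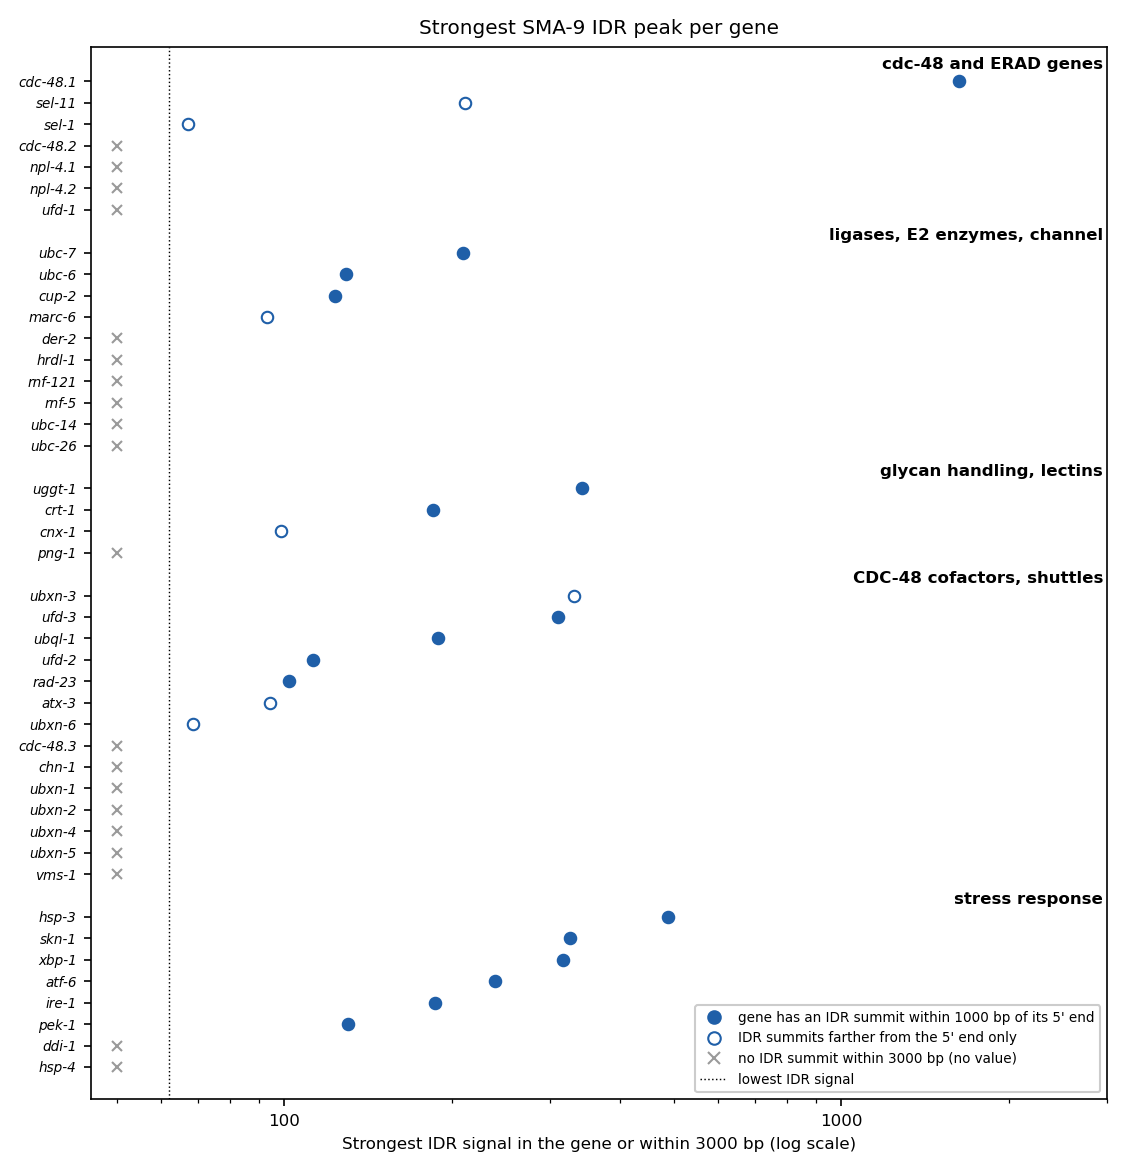
Strongest IDR signal in the gene or within 3000 bp, on a log axis, for the 7 genes and the 36 further pathway genes by group. Filled points have an IDR summit within 1000 bp of their 5′ end, open points only farther away, and crosses have none; cdc-48.1 at 1630.01 is to the right of all others, of which hsp-3 at 489 is the highest.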

How the data were processed

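Per the file headers, the alignments of a replicate and 1 further file gave that replicate's list, both replicates gave a pooled list, and the IDR list came from these 3. The deposited lists give the authors' peak signal per call, in a unit not given in the sources used here, as are the aligner, the peak caller, the IDR threshold and the read depth. The 4 lists on ce11 were used, and the 4 on ce10 and the control experiment were not analysed here. The replicate and pooled lists hold 30000 calls each and the IDR list 7065, which are the first 7065 of the pooled list by signal.

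Genes and 5′ ends came from Ensembl release 115 (WBcel235), keeping the 29304 5′ ends of protein-coding transcripts on the 6 nuclear chromosomes. Summits were assigned to every gene within 3000 bp. Replicate values are those of the strongest call over the pooled summit, or, where an IDR summit had none, of a call overlapping the peak. Proteins were translated from the annotation and aligned end to end with Biopython 1.88 (BLOSUM62, gap opening 11, extension 1). Python 3.11.15, pandas 2.3.3, NumPy 2.4.6 and matplotlib 3.10.9 were used, and the steps were tested on simulated data. Named were all 7 genes, every gene of the pathway list and, for the IDR peaks of each member and the strongest of each list gene, neighbours whose 5′ end was nearer. The members and the lists were chosen with earlier results of these data known. Alternatives were windows of 1000 and 5000 bp, 500 and 2000 bp around 5′ ends, fewer or more peaks, each replicate alone, and overlap in place of the summit.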

Additional observations from a re-analysis of the deposited data

How the results depend on the processing

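The count of genes with an IDR peak depended on the window. With 1000 bp in place of 3000 bp, 1 of the 7 genes and 2 summits were left, both at cdc-48.1, and sel-1 and sel-11 had no value. With 5000 bp, 5 genes had 12 summits, ufd-1 and npl-4.2 were added, and the strongest signal at sel-1 became 111. The summit added at npl-4.2 lay 3415 bp from that gene and 155 bp upstream of dhs-6. For the sel-1 peak of 111, the nearest 5′ end was that of F45D3.4, at 2796 bp. With every call of the pooled list, 7 genes had 36 calls, 4 of them with one within 1000 bp of a 5′ end. With the first 7065 calls of a single replicate, leaving the other out, 2 to 4 genes had 5 to 8 summits: cdc-48.2 was added without replicate 1, and sel-1 was lost without replicate 2. What added cdc-48.2 was the replicate 2 call at rank 6083, near the 5′ end of ints-11. The replicate 2 call upstream of cdc-48.2, at rank 7727, stayed out. With the stronger 3532 IDR peaks, 2 genes had 5 summits. The cdc-48.1 promoter was the 1 gene with an IDR summit at its 5′ end at 500 and 2000 bp, in the stronger peaks, in each replicate alone and by overlap. The count in the pathway list ran from 15 to 28 over all settings. Shares of all genes are given here only for the main settings and for pooled calls within 3000 bp. The changes under the other settings were thus not set beside genes at large. No paired analysis was possible because the samples form 1 group. The lists give no read counts, so how depth limits the weak calls is unknown, and 2 replicates give only a poor estimate of the error of a signal.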

Other observations

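The repeated sequence at npl-4.1 and npl-4.2 is not common among protein-coding genes. In 196 of them, or 0.981%, the 1000 bp upstream held no 31 bp stretch that occurs only once in the genome, and 1 of the 196, or 0.51%, had an IDR summit within 1000 bp of a 5′ end. Of the 17041 genes with at least 90% of such stretches unique, 3723, or 21.8%, had one. No comparison of these genes matched for other features is given here. Of the calls, 32 of the 7065 IDR peaks, or 0.453%, and 120 of the 30000 pooled calls, or 0.4%, had fewer than 50% of their stretches unique. The share of genome windows of such width below 50% is not given here, so these shares were not compared. Of the pooled calls, 4 held no unique stretch. These values were computed after those of the npl-4 genes were seen, and the part of read placement in them was not tested.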
